A study of Mus musculus with 2 samples.

Results

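The collagen genes of the mouse were followed through 5 cell classes of the aorta, in a library with endothelial overexpression of Cept1 and in a control library. Members were all gene symbols made of Col, a number, the letter a and a number, which gave 44 of the 32285 features in the deposited tables. Col4a3bp, which starts like a member but encodes a lipid transfer protein, was left out. Of the 44 genes, 36 had at least 20 UMIs (unique molecular identifiers, each standing for 1 captured RNA molecule) over both libraries in at least 1 class. The 30 genes with at least 50 UMIs in a class are described with values. The other 6 measured genes, Col7a1, Col9a3, Col11a2, Col13a1, Col24a1 and Col25a1, reached that minimum of 20 in fibroblast cells only. The 8 genes measured in no class were Col2a1, Col6a4, Col9a1, Col9a2, Col10a1, Col17a1, Col22a1 and Col26a1. None of the 44 was at 0 over both libraries.

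Collagens are proteins of the extracellular matrix built from a triple helix of alpha chains, and each Col gene encodes 1 such chain. Types I and III form the fibrils that bear tension in the arterial media and adventitia, type IV forms the sheet-like network of basement membranes under endothelium and around smooth muscle and Schwann cells, and type VI forms beaded filaments beside cells. Fibril-associated collagens coat fibrils, multiplexins lie at the border of basement membranes, and a few collagens span the cell membrane.

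Male mice of the C57BL6 background gave the whole aorta between the arch and the bifurcation. Both groups are labelled Cept1fl/fl, and the construct behind the overexpression is not described in the labels. The overexpression group (Cre+) also carried VE-cadherin-Cre-ERT2, a Cre recombinase that tamoxifen activates and that the promoter of an endothelial adhesion gene drives, and the control group was Cre-. Per the labels' protocols, littermates at least 8 weeks old received 5 daily injections of 1 mg tamoxifen and recovered for 5 days, while the age label reads 6 to 8 weeks. Each condition had 3 animals and 1 library. Neither the pooling of the 3 animals nor the gate of the sort that the labels mention is given in the sources used here. Below, Cept1 library stands for the overexpression sample and control library for the Cre- sample. With 1 library per group no difference has a replicate check, nothing was tested, and all intervals cover counting error only.

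Cells were assigned to a class when at least 3 of its 8 marker genes had a UMI and no other class, nor the leukocyte set, had more than 2. This gave 4754 and 3282 fibroblast, 580 and 474 smooth muscle, 914 and 465 endothelial, 49 and 44 Schwann, and 13 and 10 mesothelial cells in the Cept1 and the control library, out of 10679 and 8556 kept cells. All 8 markers of each class were detected in that class in both libraries. Lymphocytes (434 and 1177 cells), which do not make fibrillar collagen, were taken to show the level of free RNA. Levels are given as CPM, the UMIs of a gene per 1000000 UMIs of the class. They count molecules captured at their 3′ end, so they were not divided by gene length. The median depth was 4622 and 5148 UMIs per fibroblast cell, 10224 and 13536 per smooth muscle cell, and 5526 and 5854 per endothelial cell. The libraries shared 74 cell barcodes, of which 9 were in the 5 classes.

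Cept1 itself was at 136 CPM in endothelial cells of the Cept1 library (779 UMIs) and at 84.7 CPM in those of the control library (280 UMIs), a log2 ratio of 0.68 with an exact 95% interval of 0.48 to 0.88. In fibroblast cells it was at 47.6 and 44.5 CPM, and in smooth muscle cells it had 240 and 233 UMIs, a log2 ratio of 0.17 (-0.10 to 0.43). Of these classes, only endothelial cells, in which the promoter drives the Cre, had an interval that left out 0. A UMI does not tell which copy of the gene a transcript came from.

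Collagen RNA was spread over the classes in a steep order. The 44 genes together made up 4.19% of all UMIs in fibroblast cells of the Cept1 library and 3.50% in those of the control library. Smooth muscle cells followed with 0.902% and 0.863%, Schwann cells with 0.768% and 0.579%, mesothelial cells with 0.372% and 0.697%, and endothelial cells with 0.241% and 0.268%. Lymphocytes carried 0.0342% and 0.0225%, so the lowest of the 5 classes, in each library, lay above that background. The order of fibroblast, then smooth muscle, was the same in both libraries, while mesothelial cells of the control library stood above its Schwann cells.

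The makeup of that RNA also differed by class. In fibroblast cells, fibrillar collagens gave 87.7% of the collagen UMIs (Cept1 library) and 85.1% (control library). Endothelial cells had the lowest fibrillar share, 31.2% and 38.2%, and the highest share of type IV chains, 51.2% and 46.9%. In smooth muscle cells the fibrillar share was 52.5% and 50.5%, type IV 23.8% in each library, and the multiplexins 12.3% and 13.5%, most of it Col18a1. Schwann cells had 14.7% and 13.1% fibril-associated collagen. Short-chain network collagen, which is nearly all Col8a1 here, reached 6.74% and 5.88% in endothelial cells.

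**Figure D1:**
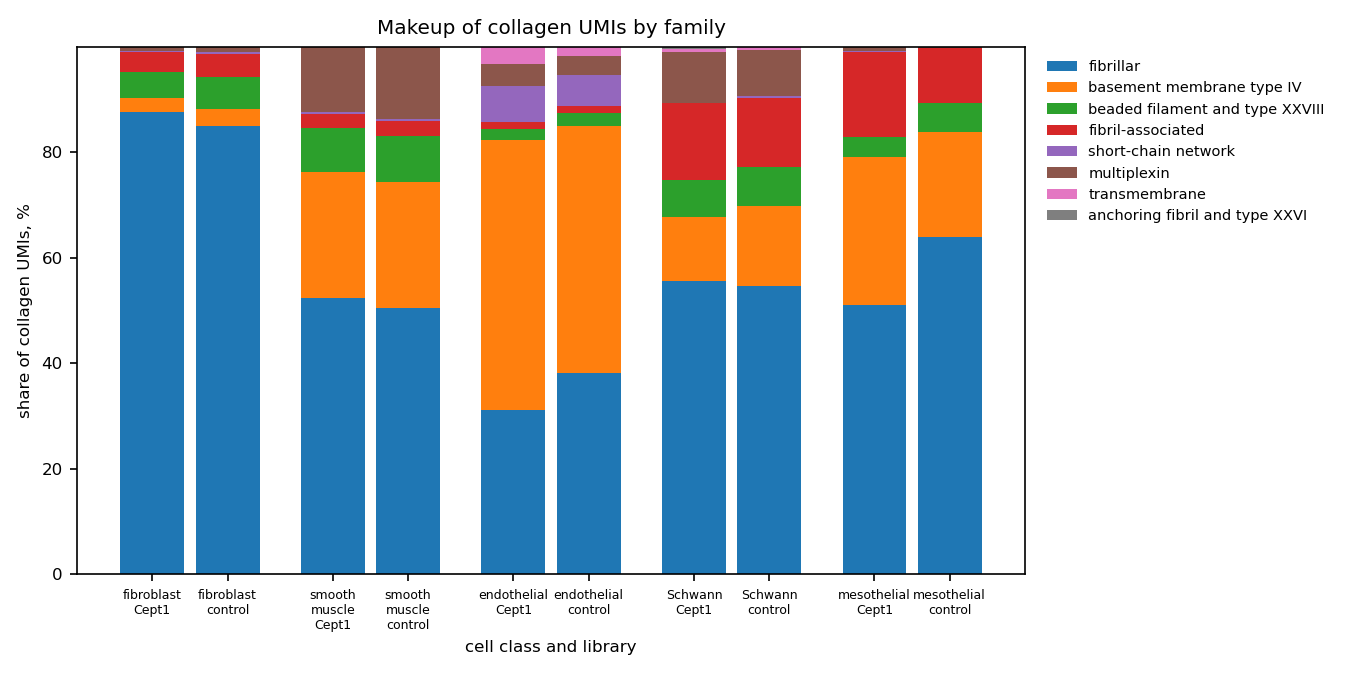
Share of collagen UMIs (y axis, %) by collagen family (colours) in 5 cell classes of the Cept1 and the control library (x axis), with no error bars. Fibrillar collagens fill 87.7% and 85.1% of the fibroblast bars, while type IV fills 51.2% and 46.9% of the endothelial bars.

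For 28 of the 30 genes described, the class of highest level was the same in both libraries. That class was fibroblast for 13 genes (Cept1 library) and 14 genes (control library), Schwann for 7 and 6, smooth muscle for 6 in each, and endothelial and mesothelial for 2 each. The exceptions were Col4a1, at 517 to 658 CPM in Schwann, smooth muscle and endothelial cells of both libraries, and Col15a1, at 205 to 267 CPM in fibroblast and smooth muscle cells. Under 4 other ways of choosing the cells, 26 to 29 of the 30 genes kept 1 class in both libraries.

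**Figure D2:**
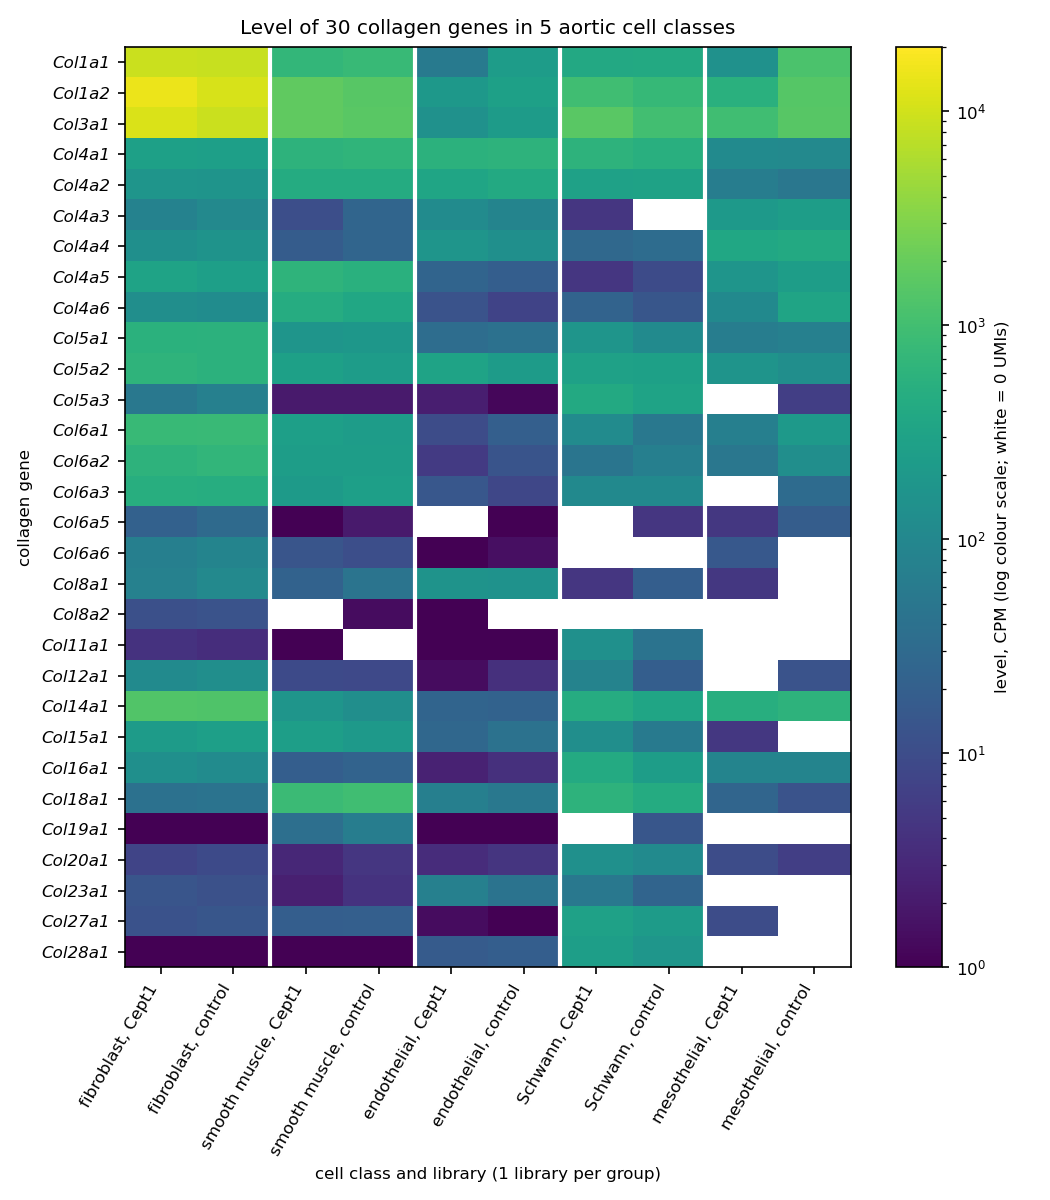
Level (colour, CPM on a log scale, with values below 1 CPM shown in the lowest colour and white for 0 UMIs) of 30 collagen genes (rows) in 5 cell classes of both libraries (columns, 1 library per group). Col1a1, Col1a2 and Col3a1 are brightest in fibroblast cells, and Col5a3, Col11a1, Col16a1, Col20a1, Col27a1 and Col28a1 in Schwann cells.

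Promoters of 4 genes are shown, 1 gene for each of 4 classes in which it was highest in both libraries: Col3a1 for fibroblast, Col4a6 for smooth muscle, Col23a1 for endothelial and Col28a1 for Schwann cells. Each sequence is the 250 bases before the annotated start on the gene's own strand, from RefSeq on GRCm38.p6, at chr1:45311288-45311537 (+), chrX:141474077-141474326 (-), chr11:51289670-51289919 (+) and chr6:8192618-8192867 (-). None of the 4 windows overlapped an annotated exon, and 35 of the 44 members had an entry. Capitals mark each match, on either strand, to 3 motifs that do not overlap in these windows: the CCAAT box with the letters CCAAT, the TATA box with TATAAA, and the GC box with GGGCGG.
Col3a1: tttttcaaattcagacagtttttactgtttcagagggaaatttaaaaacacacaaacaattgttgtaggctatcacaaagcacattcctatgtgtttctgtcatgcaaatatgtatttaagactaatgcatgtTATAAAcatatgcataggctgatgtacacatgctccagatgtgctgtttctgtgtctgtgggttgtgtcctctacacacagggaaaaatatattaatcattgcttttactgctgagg
Col4a6: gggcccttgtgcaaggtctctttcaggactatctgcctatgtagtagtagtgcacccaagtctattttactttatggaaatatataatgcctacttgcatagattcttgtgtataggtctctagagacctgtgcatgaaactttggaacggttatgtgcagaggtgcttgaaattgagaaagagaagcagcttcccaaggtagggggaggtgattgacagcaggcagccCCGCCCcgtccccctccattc
Col23a1: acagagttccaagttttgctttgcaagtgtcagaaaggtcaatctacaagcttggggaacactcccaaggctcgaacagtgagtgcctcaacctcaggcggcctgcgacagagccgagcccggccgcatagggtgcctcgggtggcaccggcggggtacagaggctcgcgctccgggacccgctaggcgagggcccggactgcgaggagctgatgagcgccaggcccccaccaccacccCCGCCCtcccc
Col28a1: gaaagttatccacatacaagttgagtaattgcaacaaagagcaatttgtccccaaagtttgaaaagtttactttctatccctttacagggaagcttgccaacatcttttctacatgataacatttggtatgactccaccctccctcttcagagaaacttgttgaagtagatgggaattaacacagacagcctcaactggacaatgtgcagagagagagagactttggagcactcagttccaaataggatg
The TATA box motif began 117 bases before the start of Col3a1, and the GC box motif 21 bases before that of Col4a6 and 11 before that of Col23a1. No match fell in the Col28a1 window. Of 32851 promoters of the same length, 33.8% held the CCAAT box, 12.4% the TATA box and 32.7% the GC box on either strand, so such matches are frequent. The 4 windows had 35.2%, 47.6%, 66% and 40.4% G or C bases. A match describes the letters only.

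Among the fibrillar genes, type I and III chains led in fibroblast cells. Col1a1 (chr11:94936224-94953042, plus strand) encodes the alpha 1 chain of type I collagen and was at 9208 CPM in the Cept1 library and 8554 CPM in the control library, a log2 ratio of 0.11 (0.10 to 0.11). Col1a2 (chr6:4504814-4541544, plus strand), its partner chain, was at 14797 and 11102 CPM, a ratio of 0.41 (0.41 to 0.42). Col3a1 (chr1:45311538-45349706, plus strand), the only chain of type III collagen, was at 11509 and 8906 CPM, a ratio of 0.37 (0.36 to 0.38). All 3 stood higher in the Cept1 library, and all stayed under the 1.5-fold that is used throughout as the size of interest. Coordinates of genes are from GENCODE vM21 on GRCm38.

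Type V chains, which set the width of fibrils, were less abundant. Col5a1 was at 553 and 573 CPM and Col5a2 at 638 and 588 CPM in fibroblast cells. Col5a3, the third type V chain, was highest in Schwann cells, at 405 and 316 CPM against 53.5 and 73.6 CPM in fibroblast cells. Col11a1, a minor fibrillar chain known from cartilage, was also highest in Schwann cells, at 146 and 43.1 CPM from 31 and 9 UMIs. Col27a1, another minor fibrillar chain, was at 292 and 225 CPM there and at most 20.4 CPM in smooth muscle and fibroblast cells. These 3 chains thus had their highest level outside fibroblast cells.

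For the genes of the basement membrane, the 3 pairs of type IV chains each showed a pattern of their own. Col4a1 and Col4a2, the chains of nearly all basement membranes, were at 592 and 441 CPM in smooth muscle and 572 and 332 CPM in endothelial cells of the Cept1 library. In the control library they were at 658 and 448 CPM in smooth muscle and 605 and 402 CPM in endothelial cells. Col4a3 and Col4a4, chains known from kidney and lung basement membranes, were highest in mesothelial cells, at 212 and 363 CPM in the Cept1 library and 245 and 414 CPM in the control library. Endothelial cells followed in the Cept1 library with 120 and 172 CPM. Col4a5 and Col4a6 were highest in smooth muscle cells, at 621 and 468 CPM in the Cept1 library and 528 and 368 CPM in the control library. Mesothelial cells held 111 and 326 CPM of Col4a6, from 22 and 52 UMIs in 13 and 10 cells. In the control library the smooth muscle level of Col4a6 was thus only 1.13 times the mesothelial one. Each pair lies head to head in the genome. The annotated starts of Col4a1 and Col4a2 on chromosome 8 are 21 bases apart, those of Col4a3 and Col4a4 on chromosome 1 are 72 apart, and those of Col4a5 and Col4a6 on chromosome X are 1309 apart.

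The ratio of the chains of a pair varied with class and with library. In fibroblast cells there were 1.63 and 1.65 Col4a1 UMIs per Col4a2 UMI in the Cept1 and control library, with intervals of 1.57 to 1.69 and 1.58 to 1.71. In smooth muscle cells the ratio was lower in each library, at 1.34 (1.28 to 1.41) and 1.47 (1.40 to 1.54). In endothelial cells it was 1.72 (1.63 to 1.82) and 1.50 (1.40 to 1.61). That is above the fibroblast ratio in the Cept1 library and below it in the control library, with overlapping intervals in both. For Col4a3 per Col4a4 the ratio was 0.579 and 0.651 in fibroblast cells. In smooth muscle cells it was 0.600 (0.43 to 0.83) and 0.982 (0.78 to 1.23), so in the Cept1 library the interval included the fibroblast ratio. Of 8 pairs of members within 200000 bases of each other, which hold 15 genes, the 3 type IV pairs were the head-to-head ones. Col3a1 and Col5a2, 24614 bases apart on chromosome 1, were both highest in fibroblast cells, and so were Col6a1 and Col6a2 on chromosome 10.

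Type VI chains were fibroblast genes in both libraries. Col6a1, Col6a2 and Col6a3, the chains of the classic type VI monomer, were at 804, 606 and 499 CPM in the Cept1 library and at 837, 674 and 484 CPM in the control library. Smooth muscle cells held 222 to 271 CPM of each in the Cept1 library and 240 to 265 CPM in the control library. Col6a5 was at 21.9 and 30.4 CPM in fibroblast cells, and a single cell held 10.6% and 12.1% of its UMIs. Col6a6 was at 72.1 and 87.4 CPM. Col28a1, a related chain known from peripheral nerve, was at 254 and 182 CPM in Schwann cells, at 16.9 and 19.4 CPM in endothelial cells and below 1 CPM in fibroblast and smooth muscle cells.

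Fibril-associated chains split between fibroblast and Schwann cells. Col14a1, a surface component of fibrils, was at 1385 and 1314 CPM in fibroblast cells. Col12a1, its relative, was at 114 and 133 CPM in that class. Col16a1 was highest in Schwann cells, at 419 and 244 CPM against 137 and 118 CPM in fibroblast cells. Col20a1 was at 146 and 115 CPM in Schwann cells and at most 9.12 CPM in fibroblast, smooth muscle and endothelial cells. Col19a1, a minor chain, was the only fibril-associated gene described that was highest in smooth muscle cells, at 37.9 and 66.5 CPM.

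Members of the remaining families were highest in different classes. Col18a1, the precursor of endostatin, was at 858 and 958 CPM in smooth muscle and 602 and 445 CPM in Schwann cells, and at 73.0 and 53.3 CPM in endothelial cells. Col8a1, a short-chain collagen of vessel walls, was at 162 and 158 CPM in endothelial cells, and Col8a2, its partner, at 11.3 and 12.8 CPM in fibroblast cells. Col23a1, a transmembrane collagen, was at 75.4 and 42.7 CPM in endothelial cells.

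A measured gene was counted as past the fold when its level differed at least 1.5-fold between the libraries with an interval that left out a log2 ratio of 0. In fibroblast cells 3 of 36 measured collagen genes were past it, all higher in the Cept1 library, against a background of 6.35% of all 15410 measured genes either way (2.16% higher and 4.19% lower). These were Col11a2 with a log2 ratio of 1.68 (0.52 to 3.02), Col13a1 with 1.41 (0.12 to 2.89) and Col24a1 with 1.26 (0.16 to 2.47). They rested on 28 to 37 UMIs each over both libraries, and none was above the lymphocyte level in both. With the stricter gate, 0 genes were past the fold higher and 2 lower. The median ratio of the 36 genes was -0.02, beside -0.05 over all measured genes, and 17 ratios lay above 0 and 19 below. The genes of the class thus lay on both sides of 0.

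The sum over all collagen genes in fibroblast cells was 41917 CPM in the Cept1 library and 35036 CPM in the control library, a log2 ratio of 0.26. The median cell differed less, with 2.98% and 2.91% of its UMIs from collagen genes, and the cell at the 90th percentile held 10.2% and 7.68%. Below Col1a2 and Col3a1, ratios ran the other way for several genes. Col5a3 had -0.46 (-0.56 to -0.36), Col8a1 -0.45 (-0.54 to -0.37), Col6a5 -0.47 (-0.63 to -0.31) and Col4a3 -0.38 (-0.46 to -0.29), all under 1.5-fold. Col4a5 at 0.23 (0.18 to 0.28) and Col16a1 at 0.21 (0.14 to 0.28) were higher in the Cept1 library.

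**Figure D3:**
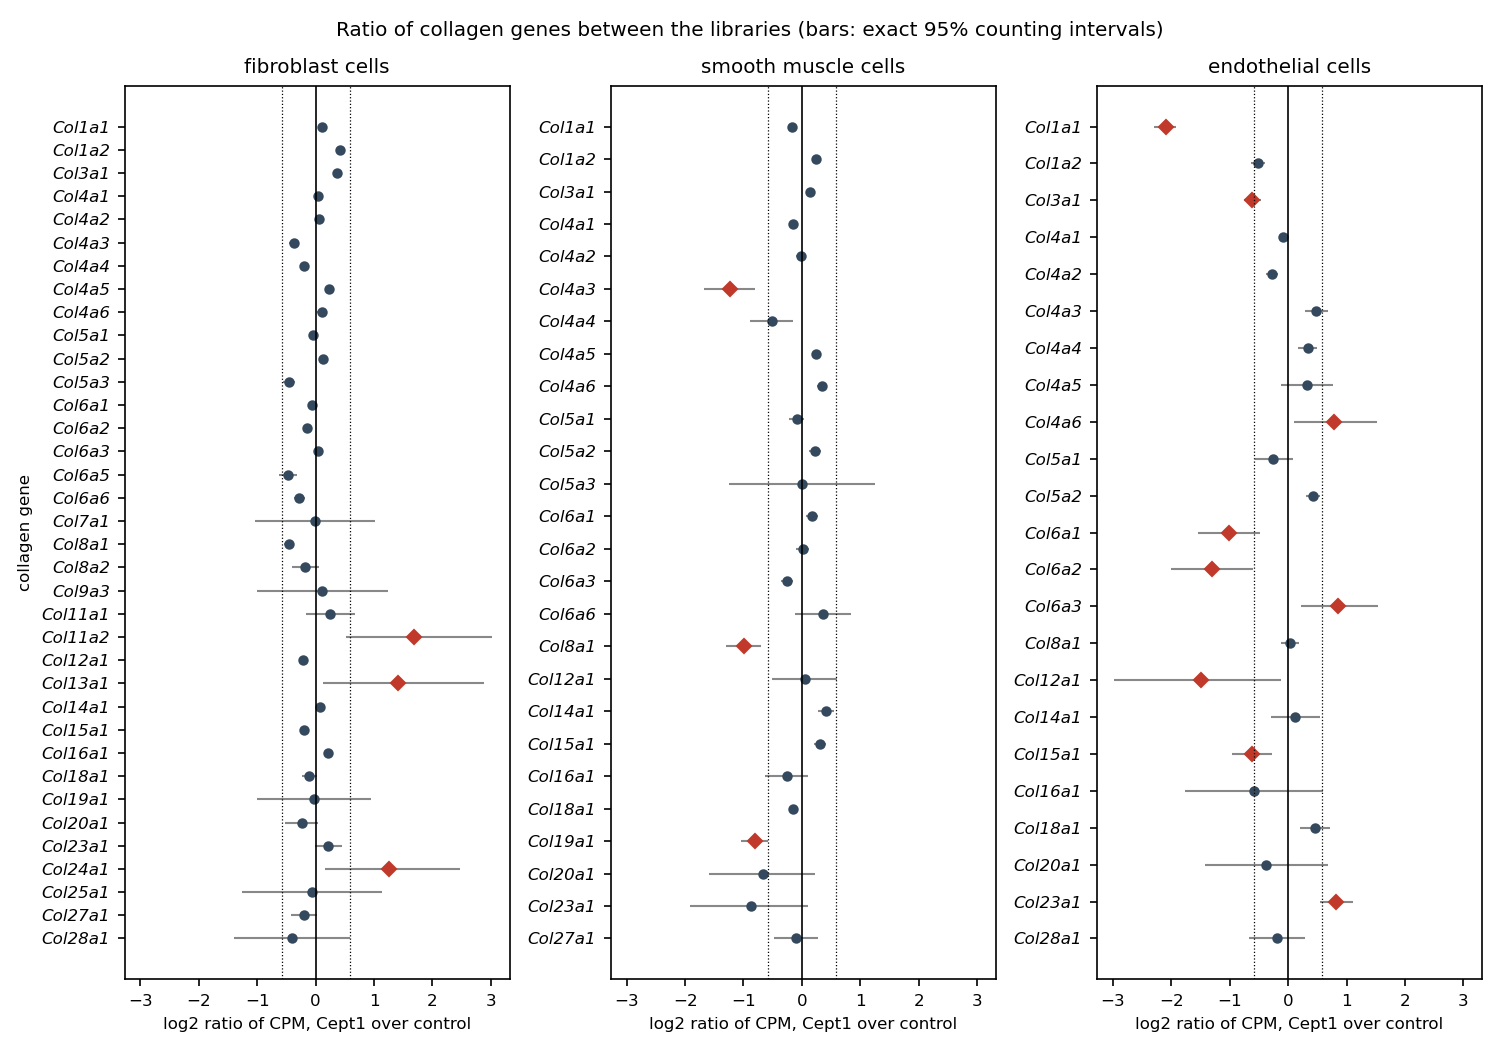
Log2 ratio of CPM, Cept1 library over control library (x axis), of each measured collagen gene (rows) in fibroblast, smooth muscle and endothelial cells, with exact 95% counting intervals. Diamonds are genes past 1.5-fold (dotted lines) with an interval off 0, of which there are 3, 3 and 9.

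Fibroblast cells were divided further by 3 groups of genes, and the sum differed between them. Cells led by Pi16, Gfpt2, Dpp4 and Sema3c, genes of adventitial progenitor-like fibroblasts, numbered 1402 and 1082 and held 22134 and 22170 CPM of collagen, a log2 ratio of -0.00 (-0.01 to 0.01). Cells led by Fmod, Rbp4 and Ccn5, among them the gene of the fibril-binding proteoglycan fibromodulin, numbered 1199 and 729 and held 63447 and 50461 CPM, a ratio of 0.33 (0.32 to 0.34). Cells led by C7, Penk and Bmper numbered 600 and 396 and held 40900 and 37884 CPM, a ratio of 0.11 (0.10 to 0.12). The collagen level of the second group was the highest in both libraries, and so was its ratio.

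In the Fmod and Rbp4 group Col1a2 was at 24115 and 17801 CPM, a log2 ratio of 0.44 (0.43 to 0.45). Col3a1 was at 15850 and 11098 CPM there, a ratio of 0.51 (0.50 to 0.53), against 0.13 (0.11 to 0.14) in the Pi16 and Gfpt2 group and 0.16 (0.14 to 0.17) in the C7 and Penk group. Col1a1 had 0.14 (0.13 to 0.16) in the Fmod and Rbp4 group, -0.24 (-0.26 to -0.22) in the Pi16 and Gfpt2 group and -0.04 (-0.06 to -0.01) in the C7 and Penk group. Col1a1 was thus above 0 in the Fmod and Rbp4 group and below 0 in the others. The differences between groups were not tested.

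Other genes were past the fold in 1 or 2 of the groups. Col8a1 in the Fmod and Rbp4 group was at 45.4 and 94.8 CPM, a log2 ratio of -1.06 (-1.28 to -0.85), the only gene past the fold of 27 measured there, against 6.38% of all genes. Its ratio in the Pi16 and Gfpt2 group was -0.57 (-0.71 to -0.44). In the Pi16 and Gfpt2 group 2 of 27 genes were past it, against 5.56% of all genes: Col4a3 with -0.66 (-0.84 to -0.47) and Col8a2 with -1.03 (-1.66 to -0.42). Col4a3 was also lower in the Fmod and Rbp4 group, with -0.32 (-0.45 to -0.19), and in the C7 and Penk group, with -0.40 (-0.71 to -0.10). In the C7 and Penk group 4 of 27 were past it, against 6.1% of all genes. Col5a3 with -0.78 (-0.96 to -0.59), Col6a5 with -0.66 (-0.86 to -0.47) and Col6a6 with -0.60 (-0.76 to -0.45) were lower, and Col8a2 with 0.90 (0.04 to 1.82), from 37 and 17 UMIs, was higher.

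**Figure D4:**
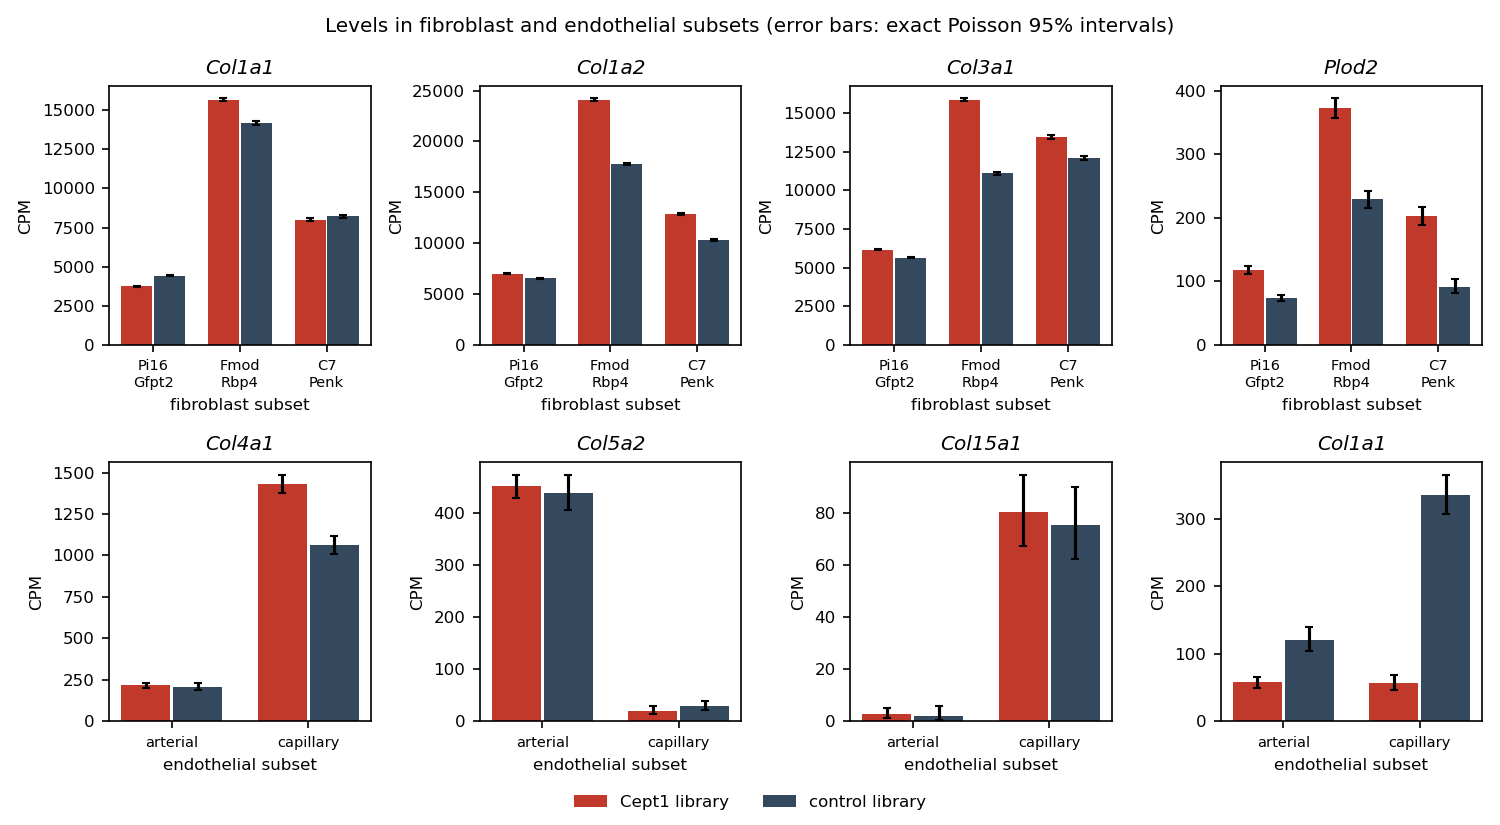
Level (y axis, CPM from 0) of 4 genes in 3 fibroblast groups (top) and 4 genes in 2 endothelial groups (bottom), in the Cept1 and control library, with exact Poisson 95% intervals. Col1a2 in the Fmod and Rbp4 group stands at 24115 and 17801 CPM, and Col1a1 in the endothelial group of capillary genes at 56.4 and 335 CPM.

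Smooth muscle cells held 9021 and 8632 CPM of collagen, a log2 ratio of 0.06 (0.05 to 0.08), and 3 of 26 measured genes were past the fold, all lower in the Cept1 library, against 6.75% of all genes either way (3.11% higher and 3.64% lower). Col4a3 was at 10.6 and 24.9 CPM, a ratio of -1.23 (-1.67 to -0.80). Col8a1 was at 22.9 and 45.6 CPM, a ratio of -0.99 (-1.30 to -0.69), with 13.9% of its control UMIs in 1 cell. Col19a1, which was highest in this class, had a ratio of -0.81 (-1.05 to -0.57). Col4a3 and Col8a1 were past the fold in 9 of 9 other settings and Col19a1 in 8 of 9.

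The main collagens of smooth muscle lay close between the libraries. Col1a2 was at 1783 and 1515 CPM, a log2 ratio of 0.24 (0.20 to 0.27), Col3a1 had 0.14 (0.10 to 0.18) and Col1a1 -0.18 (-0.24 to -0.12). Among the genes highest in this class, Col4a6 had 0.35 (0.27 to 0.43), Col4a5 0.23 (0.17 to 0.30), Col4a2 -0.02 (-0.10 to 0.05) and Col18a1 -0.16 (-0.21 to -0.11). Col4a4, the partner of Col4a3, had -0.52 (-0.89 to -0.16). The median over the 26 genes was -0.06, beside -0.02 over all measured genes. Depth per smooth muscle cell was lower in the Cept1 library (10224 against 13536 UMIs), and its part in these ratios was not tested.

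In endothelial cells, in which the Cre is driven, 9 of 23 measured collagen genes were past the fold, 3 higher and 6 lower in the Cept1 library, against 8.03% of all 12070 measured genes either way (3.64% higher and 4.39% lower). The sum was 2406 and 2680 CPM, a log2 ratio of -0.16 (-0.19 to -0.12). The median over the 23 genes was -0.20, beside 0.01 over all genes. Of the 9 genes, 5 (Col1a1, Col4a6, Col6a1, Col6a2 and Col12a1) were not above the lymphocyte level in both libraries, which leaves Col3a1, Col15a1, Col6a3 and Col23a1. Of these, Col3a1 stood at only 1.56 times the lymphocyte level in the Cept1 library and 4.24 times in the control library.

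The ratio of Col1a1 was farthest from 0. It was at 56.6 CPM in the Cept1 library (325 UMIs) and 243 CPM in the control library (802 UMIs), a log2 ratio of -2.10 (-2.29 to -1.91). Lymphocytes held 57.7 and 47.5 CPM, so the value of the Cept1 library was at the free RNA level. In the control library 10 of the 465 cells held 59.6% of the Col1a1 UMIs, and 14 cells had at least 10 of them. In the Cept1 library the 10 highest cells held 16.0%, and 1 cell had at least 10. In the cells of 1000 or more genes and 5% or fewer mitochondrial UMIs, Col1a1 was at 53.1 and 106 CPM. The 8 fibroblast markers summed to 59.2 and 58.8 CPM in those cells. Among all other endothelial cells Col1a1 was at 60.0 and 421 CPM, and the summed level of the 8 fibroblast markers there was 81.0 and 130 CPM. With the stricter gate the ratio was -0.31, and with the level in lymphocytes subtracted none could be formed. Col1a1 UMIs in endothelial cells of the control library were thus concentrated in few cells, both within and outside the limits of 1000 genes and 5%. Of the control cells with at least 10 of these UMIs, 5 were within the limits and 9 outside. The 10 highest control cells held 66.2% of the Col1a1 UMIs within the limits and 72.5% of those outside. Within the limits the log2 ratio of Col1a1 was -0.995 (-1.31 to -0.68), which is still past the fold. The part of fibroblast RNA in this difference was not tested.

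Of the 13 genes that were highest in fibroblast cells of both libraries, 10 were measured in endothelial cells, with 3 ratios above 0 and 7 below and a median of -0.57. Col5a2, Col6a3 and Col14a1, at 24.0 and 22.1 CPM, were the ones above 0. Among those below 0, Col3a1 was at 147 and 225 CPM, a log2 ratio of -0.61 (-0.76 to -0.47). This turned to 0.40 with the stricter gate and to 0.05 in the cells of 1000 or more genes and 5% or fewer mitochondrial UMIs. With doublets kept the Col3a1 ratio was -0.44, which is under 1.5-fold. Lymphocytes held 94.1 and 53.1 CPM of Col3a1, and with that level subtracted its ratio was -1.70. Col6a1 had 57 and 66 UMIs, a ratio of -1.01 (-1.55 to -0.47), and Col6a2 was at 5.40 and 13.3 CPM, a ratio of -1.30 (-2.01 to -0.61). Col12a1 had -1.50 (-2.97 to -0.12) from 8 and 13 UMIs. The sum over all collagen genes changed sign as well, to 0.11 with the stricter gate and 0.16 with the limits of 1000 genes and 5%.

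Col23a1 was among the genes higher in the Cept1 library. It was at 75.4 CPM (433 UMIs) and 42.7 CPM (141 UMIs), a log2 ratio of 0.82 (0.54 to 1.11), and was past the fold in 11 of 11 other settings, from 0.75 to 2.07. The highest of these came from weighting the groups of endothelial cells equally, in which 1 group had 32 and 0 UMIs of the gene. Within the 2 large groups of endothelial cells, described below, Col23a1 was not past the fold. With the lymphatic cells kept, which are left out of the class, it had 1081 UMIs over both libraries instead of 574, a ratio of 0.92. Col5a2 was at 309 and 230 CPM, a ratio of 0.42 (0.30 to 0.55). Col18a1 had 0.46 (0.20 to 0.72), Col4a3 0.49 (0.28 to 0.69) and Col4a4 0.33 (0.17 to 0.50). Col4a1 had -0.08 (-0.16 to -0.00) and Col4a2 -0.28 (-0.38 to -0.18). Col6a3, at 14.8 and 8.17 CPM, had 0.86 (0.22 to 1.54), but -0.94 with the looser gate and -0.78 with each cell weighted equally. Col4a6, at 12.5 and 7.26 CPM, had 0.79 (0.10 to 1.52), but 0.35 with lymphatic cells kept and -0.34 with the lymphocyte level subtracted. The 8 smooth muscle markers, from the class in which Col4a6 was highest, summed to 387 and 261 CPM in endothelial cells, with Pln at 0 in the control library. The part of smooth muscle RNA in the higher endothelial ratios was not tested.

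The endothelial class held groups of cells in different proportion in each library. Cells led by the arterial genes Gja5, Bmx, Cytl1 and Gkn3 made up 54.8% of the class in the Cept1 library (501 cells) and 38.1% in the control library (177 cells). Cells led by the capillary genes Gpihbp1, Cd36, Fabp4 and Rgcc made up 34.7% (317 cells) and 50.5% (235 cells). Cells led by Lrg1, Vwf and Plvap numbered 20 and 8, and 6 genes measured there were past the fold, 1 higher and 5 lower, against 14.9% of all genes. Col23a1 had 32 UMIs in the first and 0 in the second of those sets of cells. The part of these proportions in the pooled endothelial ratios was not tested beyond the values within each group.

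Several collagen genes did differ between those groups. Col4a1 was at 1431 and 1062 CPM in the capillary group, a log2 ratio of 0.43 (0.34 to 0.52), and at 216 and 208 CPM in the arterial group, a ratio of 0.06 (-0.13 to 0.26). Col4a2 was at 939 and 751 CPM in the capillary group and at 74.8 and 80.8 CPM in the arterial group. Both had pooled ratios below 0 but were higher in the Cept1 library within the capillary group. Col15a1 was at 80.2 and 75.1 CPM in the capillary group, a ratio of 0.09 (-0.27 to 0.46), while its pooled ratio was -0.62 (-0.96 to -0.27). With the 3 groups weighted equally the Col15a1 ratio became 0.10.

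Arterial cells carried the other set. Col5a2 was at 452 and 439 CPM in the arterial group, a log2 ratio of 0.04 (-0.09 to 0.18), and at 20.3 and 28.9 CPM in the capillary group. Col4a3 was at 187 and 186 CPM and Col4a4 at 265 and 300 CPM in the arterial group. Col23a1 was at 103 and 80.1 CPM in the arterial group, a ratio of 0.37 (0.06 to 0.68), which is under 1.5-fold. In the capillary group it had 5 and 11 UMIs, a ratio of -1.28 (-3.16 to 0.36). The pooled ratios of Col5a2, Col4a3 and Col23a1 were all larger than those within the arterial group.

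Col8a1 differed in opposite directions in the 2 groups. It was at 59.3 and 153 CPM in the capillary group, a log2 ratio of -1.37 (-1.72 to -1.03), and at 215 and 164 CPM in the arterial group, a ratio of 0.39 (0.18 to 0.61). The pooled Col8a1 ratio was 0.04 (-0.12 to 0.19). Col1a1 was at 57.2 and 121 CPM in the arterial group, a ratio of -1.08 (-1.38 to -0.78), and at 56.4 and 335 CPM in the capillary group, a ratio of -2.57 (-2.90 to -2.26). In the arterial group 5 of 18 measured genes were past the fold, against 5.77% of all genes, and in the capillary group 6 of 16, against 7.13%.

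Schwann cells, the glia of peripheral nerves, are few here, and 6 of 20 measured genes were past the fold, all higher in the Cept1 library, against 12.7% of all 4272 measured genes either way (6.13% higher and 6.55% lower). Col3a1 was at 1576 and 991 CPM (335 and 207 UMIs), a log2 ratio of 0.67 (0.42 to 0.93). Col16a1 had 0.78 (0.27 to 1.30), Col6a1 1.16 (0.08 to 2.33), Col15a1 1.20 (0.18 to 2.31), Col11a1 1.76 (0.65 to 3.01) and Col12a1 2.14 (0.54 to 4.17). Of the UMIs of Col11a1, 58.1% and 55.6% came from 1 cell in each library, and its ratio was -1.29 with the stricter gate. Within the limits of 1000 genes and 5%, which left 19 and 22 cells, only Col6a1 of the 6 genes stayed past the fold. The ratios of all 6 were still above 0 there. With the top cell left out, Col6a1 had 0.89 (-0.35 to 2.24), and Col11a1 and Col12a1 fell to 17 and 15 UMIs, under the minimum of 20. The sum was 7682 and 5792 CPM, a ratio of 0.41 (0.30 to 0.52), and 16 of the 20 ratios lay above 0, with a median of 0.39 beside -0.03 over all genes.

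Of the 6 genes that were highest in Schwann cells of both libraries, Col11a1 and Col16a1 were past the fold, and the intervals of the other 4 included 0. Col5a3 had a log2 ratio of 0.36 (-0.12 to 0.84), Col27a1 0.37 (-0.20 to 0.95), Col28a1 0.48 (-0.14 to 1.12) and Col20a1 0.34 (-0.47 to 1.18). Sox10, a transcription factor of Schwann cells, was at 485 and 498 CPM. Of the 8 fibroblast markers, Abca8a was at 2343 and 1704 CPM in Schwann cells, and the other 7 summed to 65.9 and 124 CPM, with Pdgfra and Scara5 at 0 in the Cept1 library. The part of fibroblast RNA in these ratios was not tested.

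Mesothelial cells, which line the outer surface, numbered 13 and 10, and 6 of 15 measured genes were past the fold, all lower in the Cept1 library, against 12.9% of all 3642 measured genes either way (6.89% higher and 6.04% lower). Col1a1 was at 151 CPM (30 UMIs) and 1217 CPM (194 UMIs), a log2 ratio of -3.01 (-3.61 to -2.45). Col1a2 had -1.49 (-1.84 to -1.16), Col4a6 -1.55 (-2.34 to -0.81), Col6a1 -1.55 (-2.57 to -0.61), Col6a2 -1.38 (-2.63 to -0.23) and Col3a1 -0.67 (-0.95 to -0.39). A single control cell held 26.2% of the collagen UMIs of its class, and 38.1% of the Col1a1 UMIs came from 1 cell. The sum was 3718 and 6967 CPM, a ratio of -0.91 (-1.04 to -0.77), and -0.0329 with the looser gate, which gave 31 and 23 cells. With that gate Col1a2, Col3a1, Col6a1 and Col6a2 turned to the other direction. Col4a3 and Col4a4, highest in this class, had -0.21 (-0.87 to 0.46) and -0.19 (-0.69 to 0.32). The summed level of the fibroblast markers was 116 and 213 CPM. Of this, Tnxb alone gave 65.6 and 144 CPM, and the other markers together 50.45 and 69.0 CPM. The part of fibroblast RNA in these ratios was not tested.

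The balance of the type I chains differed between the libraries in the same direction in every class examined. Type I collagen is built of alpha 1 and alpha 2 chains. In fibroblast cells there were 0.622 Col1a1 UMIs per Col1a2 UMI in the Cept1 library (0.619 to 0.625) and 0.770 in the control library (0.766 to 0.775). The ratio was 0.392 and 0.522 in smooth muscle, 0.287 and 0.861 in endothelial, 0.413 and 0.551 in Schwann, and 0.286 and 0.815 in mesothelial cells. In Schwann cells the intervals overlapped, with 0.316 to 0.536 and 0.419 to 0.720. Lymphocytes, taken to show free RNA, had 0.613 and 0.857. The difference was thus also present in lymphocytes, and with 1 library per group it cannot be told apart from a difference between the 2 libraries as such. Col3a1 per Col1a2 differed less, with 0.778 and 0.802 in fibroblast and 0.995 and 1.06 in smooth muscle cells.

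**Figure D5:**
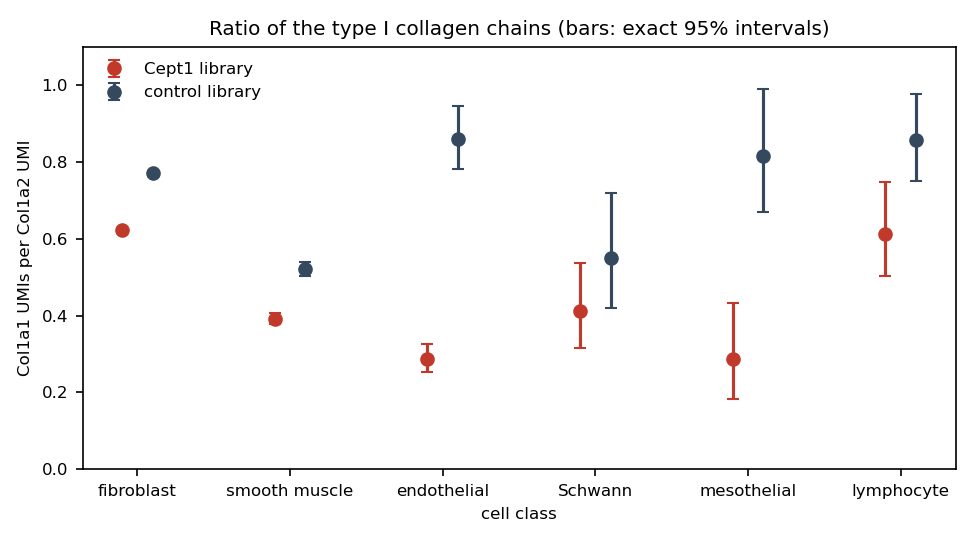
Col1a1 UMIs per Col1a2 UMI (y axis) in 5 cell classes and in lymphocytes (x axis) of the Cept1 and control library, with exact 95% counting intervals. The Cept1 library is lower at each position, from 0.622 against 0.770 in fibroblast cells to 0.287 against 0.861 in endothelial cells.

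The collagen level of lymphocytes, taken to show free RNA, differed between the libraries. Lymphocytes held 342 CPM of collagen in the Cept1 library and 225 CPM in the control library, a log2 ratio of 0.60 (0.49 to 0.71). Their median depth was 5390.5 and 6498 UMIs per cell, and the part of depth in this ratio was not tested. Col1a2 in lymphocytes had 0.76 (0.54 to 0.98) and Col3a1 0.82 (0.60 to 1.04), while Col1a1 had 0.28 (0.01 to 0.54). Of all 12420 genes measured in lymphocytes, 13.5% were past the fold, 9.96% higher and 3.51% lower in the Cept1 library. Counted as above this level in both libraries were 27 of 36 measured genes in fibroblast, 23 of 26 in smooth muscle, 16 of 23 in endothelial, 20 of 20 in Schwann and 15 of 15 in mesothelial cells.

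Genes that modify, fold, cut, crosslink or bind collagen were followed as a list of 39. In fibroblast cells all 39 were measured, with 1 higher and 3 lower past the fold, against 6.35% of all genes either way (2.16% higher and 4.19% lower), and a median log2 ratio of -0.08. Plod2, the lysyl hydroxylase that shapes crosslinks of fibrils, was at 216 CPM (5846 UMIs) and 126 CPM (3004 UMIs), a ratio of 0.78 (0.72 to 0.85). It was past the fold in each fibroblast group, with 0.68 (0.54 to 0.81) in the Pi16 and Gfpt2, 0.70 (0.60 to 0.81) in the Fmod and Rbp4 and 1.14 (0.94 to 1.34) in the C7 and Penk group. P3h2, a prolyl hydroxylase, had the next highest ratio, 0.49 (-0.10 to 1.09). Colgalt2, a glycosyltransferase of collagen, with -0.79 (-1.28 to -0.30), Tll1, a procollagen protease, with -0.66 (-1.18 to -0.14) and P4ha3, another prolyl hydroxylase, with -0.61 (-1.07 to -0.16) were lower, at 2.07 to 4.18 CPM. Plod2 was the one abundant gene of the list that passed.

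In smooth muscle cells 33 genes of the list were measured, and 1, the procollagen protease gene Adamts14, was past the fold, with -0.95 (-1.64 to -0.29), against 6.75% of all genes. Creb3l1, a transcription factor of secretory cells, had the highest log2 ratio, 0.56 (0.27 to 0.86), then Pcolce2, an enhancer of procollagen cutting, with 0.46 (0.31 to 0.61). Loxl3, a crosslinking oxidase, was second lowest with -0.45 (-0.73 to -0.17). In endothelial cells 35 were measured, with 1 higher and 1 lower, against 8.03% of all genes. P4ha3 had 1.17 (0.19 to 2.28) from 43 and 11 UMIs, of which 41 and 11 were in the arterial group, where the ratio was 0.67 (-0.32 to 1.77). Itga2, an integrin chain that binds collagen, had -1.97 (-3.38 to -0.69) from 8 and 18 UMIs. Lox, the crosslinking lysyl oxidase, was at 181 and 121 CPM, a ratio of 0.58 (0.41 to 0.75), and within the arterial and capillary groups its ratio was 0.18 (0.01 to 0.36) and -1.05 (-2.50 to 0.28). Pcolce had -0.57 (-0.99 to -0.14) and Plod1 -0.51 (-0.73 to -0.29). In Schwann cells 1 of 16 was past the fold, Adamts2, which was lower, against 12.7% of all genes. In mesothelial cells 5 of 18 were past it, all lower, against 12.9% of all genes, among them Serpinh1, the collagen chaperone, with -1.09 (-1.63 to -0.56).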

How the data were processed

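Single-cell RNA-seq counts of 2 libraries of mouse aorta, 1 per group, were taken as deposited. Per the file headers, the authors made the tables of UMI counts per gene and cell with Cell Ranger 7.2.0. The submitters' processing notes also name mm10 and Seurat. No annotation version, intron setting or strand setting is given in the sources used here. In all, the libraries held 95735360 UMIs in 17728 barcodes (Cept1) and 88220524 in 14349 (control).

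The filter kept cells of 500 or more genes and 10% or fewer mitochondrial UMIs. Doublets were called with Scrublet in scanpy 1.11.5 at an expected rate of 8%. The automatic threshold of the Cept1 library was used for both, since that of the control library called 0 cells, and this removed 489 and 173 cells. Lymphatic cells were left out of the endothelial class. A cell joined a group within a class when that group's genes had at least 3 UMIs and at least 2 times those of the next. Counts were summed per class and divided by the class total (CPM). Ratios have exact 95% Clopper-Pearson intervals from scipy 1.17.1. No test was possible with 1 library per group. Genes with at least 50 UMIs in a class were described. The fibroblast markers were Pdgfra, Scara5, Dpt, Lum, Clec3b, Tnxb, Abca8a and Htra3, and the endothelial ones Pecam1, Cdh5, Tie1, Egfl7, Cldn5, Erg, Ptprb and Emcn. Those of smooth muscle included Myh11 and Acta2, those of Schwann cells Sox10, and those of mesothelial cells Msln and Upk1b. Members, markers and gene lists were chosen with earlier results of these data known. The counting of genes past the fold was checked on simulated counts with known fold changes. A stricter gate (4 or more own markers and 1 or fewer of another class), a looser gate (3 or more own markers, and more of them than of any other set), doublets kept, stricter cell limits, TMM (edgeR 4.0.16) and median of ratios scaling, equal weights and subtraction of the lymphocyte level were tried.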

Additional observations from a re-analysis of the deposited data

Results flagged for a closer look

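In 5 genes the ratio between the libraries was past the fold in opposite directions in different classes. The difference between classes was not tested, since each class has 1 library per group. Col3a1 had a log2 ratio of -0.61 in endothelial, 0.67 in Schwann and -0.67 in mesothelial cells. Col6a1 had -1.01, 1.16 and -1.55 in those classes. Col4a6 was at 0.79 in endothelial and -1.55 in mesothelial cells. Col12a1 was at -1.50 in endothelial and 2.14 in Schwann cells, from 8 and 13 and from 18 and 4 UMIs. Col15a1 was at -0.62 in endothelial and 1.20 in Schwann cells. Many of these values depend on the cells chosen. With the stricter gate Col3a1 was at 0.40 in endothelial and 0.0104 in mesothelial cells, and mesothelial Col4a6 and Col6a1 were at 0.27 and 0.82. That gate left 6 and 2 mesothelial cells, and the intervals of these mesothelial values included 0. Endothelial Col4a6 was at -0.34 with the lymphocyte level subtracted, and endothelial Col15a1 at 0.10 with groups weighted equally. In endothelial cells Col4a6, Col6a1 and Col12a1 were not above the lymphocyte level in both libraries. In Schwann cells Col3a1, Col12a1 and Col15a1 were not past the fold within the limits of 1000 genes and 5%.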

How the results depend on the processing

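No paired analysis was possible because each group has 1 library, and no library could be left out. The few cells of the Schwann (49 and 44) and mesothelial (13 and 10) classes limit what can be seen in them to large differences. The log2 ratio of summed collagen in fibroblast cells was 0.23 with the stricter and with the looser gate, 0.31 under cell limits of 1000 or more genes and 5% or fewer mitochondrial UMIs, 0.30 with TMM, 0.32 with median of ratios, 0.24 with cells and 0.19 with groups weighted equally. In smooth muscle cells it was 0.0458 with the stricter gate, 0.0885 with the cell limits, 0.0889 with TMM, -0.0209 with equal cells and 0.0459 with the lymphocyte level subtracted, and the genes past the fold were 5 with the looser gate, 7 with equal cells, 6 after subtraction and 7 with no minimum of UMIs. In endothelial cells the sum was 0.11 (stricter), -0.56 (looser), 0.16 (cell limits), -0.82 (equal cells), -0.25 (subtraction) and -0.33 (equal groups), with 5, 5 and 15 genes past the fold for the stricter gate, cell limits and equal cells. In Schwann cells it was 0.68 with 3 genes (stricter) and 0.52 (cell limits, where only Col6a1 of the 6 genes stayed past the fold). In mesothelial cells it was -0.35 (stricter), -0.0329 (looser), -0.38 with 1 gene (cell limits), -2.55 (equal cells) and -0.64 with the top cell left out, a setting chosen after seeing the data. The stricter gate and the cell limits each left 6 and 2 mesothelial cells.

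Directions turned as follows. In endothelial cells Col3a1 was 0.40 (stricter) and 0.0515 (cell limits), Col6a3 -0.94 (looser) and -0.78 (equal cells), Col4a6 -0.34 (subtraction) and Col15a1 0.10 (equal groups). Col11a1 in Schwann cells was -1.29 (stricter). In mesothelial cells the stricter gate gave Col3a1 0.0104, Col4a6 0.27, Col6a1 0.82 and Col6a2 0.18. These values came from 6 and 2 cells, and each interval included 0. Col4a6, Col6a1 and Col6a2 had 13, 10 and 10 UMIs there, so their direction is open. The looser gate gave Col1a2 0.31, Col3a1 0.52, Col6a1 0.38 and Col6a2 0.55. The cause was not tested.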
